A study of Mus musculus with 68 samples.

Results

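Cytokines and colony-stimulating factors were followed in mouse embryonic fibroblasts (MEFs) given tunicamycin (TM), a drug that blocks protein glycosylation and so causes endoplasmic reticulum (ER) stress. The group was chosen by name, with earlier results of these data known, and holds 8 genes. Lif, Il6 and Il11 signal through the shared receptor chain gp130. The others are the colony-stimulating factors Csf1 and Csf2, the proinflammatory cytokines Tnf and Il1b, and the receptor Il1rl1. All were among the 13197 genes listed for the founder strains. In the F1 crosses 6 of them were among 12803 genes, and Tnf and Il1b were not analysed there. Lif was called raised with TM in 7 of 8 strains and in all 5 crosses, in xWSB only without pairing of numbered replicates. In 129 it was 2.22 fold higher but did not pass (limma adjusted p = 0.0322). Csf2 went from 0 to 3 reads in all founder controls but 1, which had 18, to between 9 and 97 reads with TM. Tnf and Il1b were read with TM in 5 strains and stayed at or near 0 in 129, NOD and WSB.

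The 40 founder libraries came from 8 inbred strains, the founders of the Collaborative Cross: 129 (129S1Sv/ImJ), A (A/J), B6 (C57BL/6J), CAST (CAST/EiJ), NOD (NOD/ShiLtJ), NZO (NZO/H1LtJ), PWK (PWK/PhJ) and WSB (WSB/EiJ). The 28 F1 libraries came from crosses of a B6 mother with 129, CAST, NOD, NZO or WSB, named x129, xCAST, xNOD, xNZO and xWSB. Cells had 2 ug/ml of TM for 4 h, and control cells had 0.1% DMSO, the solvent of TM. The comparison asks how far each genotype changes these genes under ER stress, and whether genotypes differ. There were 3 control and 3 TM libraries for A, PWK, x129, xNZO and xWSB, and 2 of each for B6 and CAST. 129, NOD, NZO, WSB and xCAST each had 2 controls against 3 with TM, and xNOD had 3 controls against 2. MEFs of a genotype were a mix of cells from several female embryos of 1 litter, so its libraries share that source. P-values therefore measure the spread between these libraries, which may be technical, and not between litters.

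Cytokines are small secreted proteins that cells use to signal to each other. Lif, Il6 and Il11 bind their own receptor chains together with gp130 and act through JAK and STAT3. Csf1 keeps macrophages alive, Csf2 (GM-CSF) acts on granulocytes and macrophages, and Tnf and Il1b start the NF-kB response in most cells. Macrophages are the classic source of Tnf and Il1b, while fibroblasts are a known source of Lif, Il6, Il11 and Csf1. Il1rl1 (ST2) is the receptor for Il33, and fibroblasts and mast cells make it.

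TM and control libraries separated in every genotype by ER stress genes. Hspa5, the main ER chaperone, lay between 787.1 and 1587 in founder controls and between 5106 and 8816 with TM, and Ddit3 (CHOP) and Herpud1 did not overlap between control and TM libraries in either set. All 10 fibroblast markers were read in each of the 68 libraries, but Thy1 fell as low as 1.38 in 1 founder library. Reads on genes ran from 7091923 to 21530282 in the founder set and from 6442976 to 29528457 in the F1 set, and 1 read was worth between 0.0266 and 0.147 of a value. Values are the authors' normalised signal, which is not divided by gene length, so levels are compared between genotypes for 1 gene and not between genes. The sets are in separate tables with different genes, and levels are not compared between them.

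The promoters of the gp130 cytokines and of Tnf and Il1b are shown because Lif was raised in most genotypes and Il11 in none, and because Tnf and Il1b were read in some strains and not in others. They are the 250 bases before the start of the transcript in RefSeq (GRCm38.p6, so the B6 sequence), in the direction of the gene, and the other strains' sequences were not analysed here. Capitals mark an AP-1 motif (TGANTCA), the NF-kB consensus or a TATA box (TATAAA), each searched on both strands. Matches are letters only and are not shown to be bound. Lif lies on chromosome 11 (4257557 to 4272514, + strand), Il6 on chromosome 5 (30013114 to 30019981, +), Il11 on chromosome 7 (4772373 to 4782859, −), Tnf on chromosome 17 (35199381 to 35202007, −) and Il1b on chromosome 2 (129364570 to 129371139, −), all in GRCm38. For Il11, which has more than 1 start in RefSeq, the window at the downstream start is shown, which holds the motif.
Lif, chr11:4257318-4257567 (+): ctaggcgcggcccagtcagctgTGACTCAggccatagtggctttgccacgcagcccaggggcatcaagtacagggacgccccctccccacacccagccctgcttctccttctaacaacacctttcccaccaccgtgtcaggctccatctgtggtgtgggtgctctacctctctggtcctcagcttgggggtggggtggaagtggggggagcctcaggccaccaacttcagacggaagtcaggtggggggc
Il6, chr5:30012864-30013113 (+): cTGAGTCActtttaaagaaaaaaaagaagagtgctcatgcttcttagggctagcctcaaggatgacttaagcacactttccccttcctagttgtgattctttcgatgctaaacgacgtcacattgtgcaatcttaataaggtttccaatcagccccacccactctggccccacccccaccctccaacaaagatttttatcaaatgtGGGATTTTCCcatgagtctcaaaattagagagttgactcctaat
Il11, chr7:4778142-4778391 (−): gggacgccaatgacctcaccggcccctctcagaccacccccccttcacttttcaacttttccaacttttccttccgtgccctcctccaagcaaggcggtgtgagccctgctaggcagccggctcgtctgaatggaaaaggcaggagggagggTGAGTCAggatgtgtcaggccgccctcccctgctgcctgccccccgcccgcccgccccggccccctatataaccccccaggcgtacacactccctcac
Tnf, chr17:35202008-35202257 (−): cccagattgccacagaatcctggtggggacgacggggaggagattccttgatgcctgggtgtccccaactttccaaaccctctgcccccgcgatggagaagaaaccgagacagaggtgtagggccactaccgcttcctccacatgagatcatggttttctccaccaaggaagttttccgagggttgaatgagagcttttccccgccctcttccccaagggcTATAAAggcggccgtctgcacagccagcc
Il1b, chr2:129371140-129371389 (−): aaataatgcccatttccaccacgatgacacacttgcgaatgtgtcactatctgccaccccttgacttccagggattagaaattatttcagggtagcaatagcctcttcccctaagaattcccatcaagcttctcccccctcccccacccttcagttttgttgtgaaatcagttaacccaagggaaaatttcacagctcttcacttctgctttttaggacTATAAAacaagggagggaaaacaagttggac

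All 8 genes matched a RefSeq promoter, and the search also took in 50 bases after the start. AP-1 letters were found for Lif, Il6 and Il11, 3 of 8, against 8.97% of 27025 genes. Counted from the start, with the base before it as −1, they began at −228 for Lif, −249 for Il6 and −98 for Il11. The NF-kB consensus was found for Il6, at −44, and for Csf1, on the other strand at −154, against 5.14% of all genes. Tnf and Il1b each held a TATA box close to the start, which 15.7% of genes had in this window. The cyclic AMP element (TGACGTCA, 2.03% of genes), the CARE bound by ATF4 (TGATGNAA, 4.51%) and the ER stress element (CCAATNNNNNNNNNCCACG, 0.137%) were found for none of the 8 in these windows. Csf1, at 107741048 to 107760469 on chromosome 3, Csf2, at 54247271 to 54249667 on chromosome 11, and Il1rl1, at 40429570 to 40465415 on chromosome 1, complete the group. Csf2 is on the − strand, and its RefSeq window before the start, 54249900 to 54250149, lies upstream of the position given here. The bases directly before that position were not all searched, so the absence of letters for Csf2 covers its window only.

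In the founder strains 57 pairs of gene and strain passed the filter on low values, of 64, and 19 of them (33.3%) were raised by TM at an adjusted p below 0.01 and at least 1.5 fold with limma, where 2.4% of all pairs of gene and strain were raised. None was lowered, by limma or edgeR, though 4 had an unadjusted p below 0.05 in that direction (1.55% of all pairs were lowered). In the crosses 9 of 30 pairs (30.0%) were raised, where 2.54% of all pairs were, and none was lowered by limma or edgeR, with 2 at an unadjusted p below 0.05 (1.47% of all pairs were lowered). Lif in xWSB is counted here from the fit without pairing, and its call was lost when numbered replicates were paired. The median change of the tested pairs was 1.15 on the log2 scale in the strains, against −0.02 over all genes, and 0.38 in the crosses, against −0.03. Pairs left out by the filter were Tnf in 129, NOD and WSB and Il1b in 129, CAST, NOD and WSB. Csf2, Tnf and Il1b mostly passed the filter through their TM libraries, as their controls were near 0. They hold 6, 3 and 2 of the raised pairs in the strains, and Csf2 holds 3 in the crosses. Shares and medians of the tested pairs therefore partly follow from the filter. The genes were also chosen with earlier results of these data known, so these counts are descriptions. The number of genes of any kind that passed differed widely between strains, from 40 in 129 and 41 in NZO to 810 in PWK. Of the 8 genes 5 were raised in PWK, where 6.36% of all genes were, 4 in B6 (5.04%), 3 in CAST (2.54%), 2 each in A (0.346%), NOD (1.45%) and NZO (0.320%), 1 in WSB (2.85%) and none in 129 (0.315%) with limma. In 129 edgeR also called none, and 3 (Lif, Il6 and Csf2) were higher at an unadjusted p below 0.05. In the crosses 3 were raised in xCAST (2.52%), 2 in x129 (4.88%) and xNOD (3.69%) and 1 in xNZO (1.44%) and xWSB (0.185%).

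**Figure D1:**
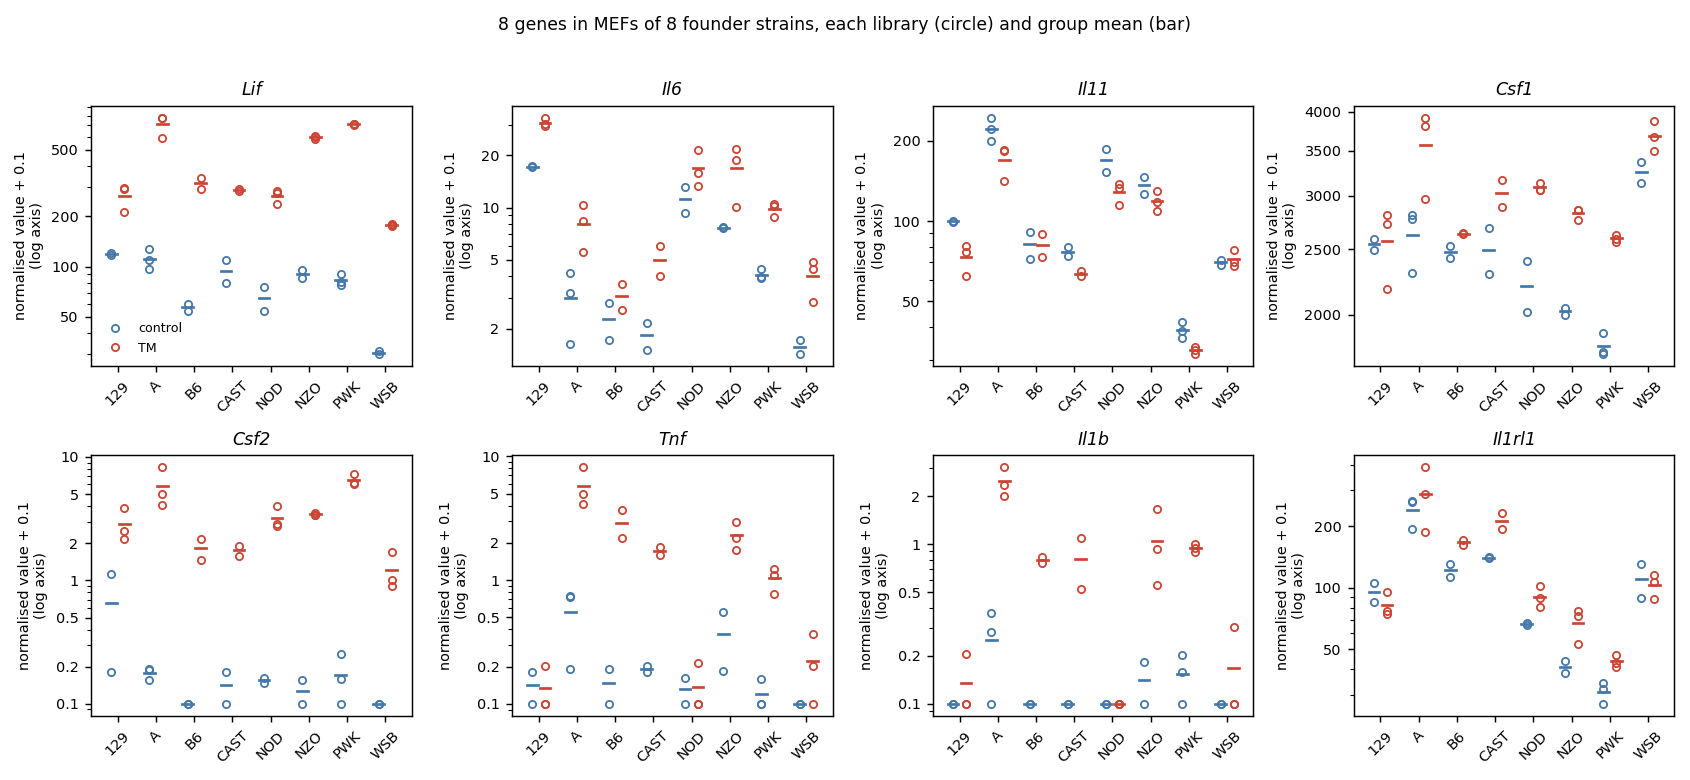
Normalised value of each of the 8 genes in each founder library (circles, with 0.1 added, on a log axis) by strain, with the mean of control and TM libraries as bars. Lif and Csf2 lie higher with TM in every strain, Il11 does not, and Tnf and Il1b stay near the floor of the axis in 129, NOD and WSB.

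Lif, which keeps stem cells undifferentiated and acts on many tissues in inflammation, was higher with TM in every library of every strain than in its controls. Control values in WSB were 31.1 and 29.9 and TM values 179.9, 177.2 and 175.5. In PWK the controls held 90.7, 80.8 and 77.3 and the TM libraries 703.4, 713.5 and 710.6. In 129 they were 120.2 and 116.9 against 213.1, 294.3 and 290.4 with TM. No control library of any strain reached a TM library of the same strain, where 22.5% of all pairs of gene and strain had every TM library above every control. PWK therefore rose the most from a middling control level, while 129 had the highest control level and one of the lower TM levels.

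The rise of Lif was 8.57 fold in PWK (log2 change 3.10 ± 0.09 SE, limma adjusted p = 2.74e-11), 6.60 fold in NZO, 6.40 in A, 5.81 in WSB, 5.53 in B6, 4.14 in NOD and 3.08 in CAST. In 129 it was 2.22 fold (1.15 ± 0.18 SE) and did not pass, with a limma adjusted p of 0.0322. Leaving out TM replicate 1 or TM replicate 3 of 129 gave limma adjusted p-values of 0.00552 and 0.00808, which pass. The call in A was lost without TM replicate 1 (limma adjusted p = 0.0102) or TM replicate 3 (0.0144). That in NZO was lost without control replicate 2 (0.0699) or 3 (0.0636) and without TM replicate 1 (0.0208) or 2 (0.0138), all adjusted p from limma. The log2 change of Lif in NZO then lay between 2.64 and 2.80.

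The strains differed in how far Lif rose. The F test of log2(TM/control) among the 8 strains, with every TM library divided by its own strain's median control, gave a moderated adjusted p of 1.67e-07 with limma, and 2.9% of all genes passed it. That test takes the median control as known and passed many genes without a difference when tried on simulated data, so the strain by treatment interaction, which carries the error of the controls, is given beside it throughout. For Lif the interaction had an adjusted p of 2.97e-05 with limma and 0.000148 with edgeR, and 0.174% of all genes passed it with limma. The change in 129 was 1.30 ± 0.16 (SE) below the mean of the other strains on the log2 scale (limma adjusted p = 3.70e-05) and that in PWK 0.92 ± 0.15 above it (adjusted p = 0.00198, limma), where 0.017% of pairs passed. For PWK this did not pass with edgeR (adjusted p = 0.0163), nor without any 1 of PWK control replicates 2 and 3 and TM replicates 1, 2 and 3, with limma adjusted p-values from 0.0143 to 0.0215. When numbered replicates were paired in every strain, which was not taken as the design, the interaction and the changes in 129 and PWK missed the threshold.

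Control levels of Lif differed too, with a limma F test adjusted p of 3.84e-06, as they did for 35.8% of all genes. From the lowest the means were WSB 30.5, B6 56.9, NOD 64.6, PWK 82.9, NZO 90.1, CAST 94.2, A 111.5 and 129 118.5. Only WSB from B6 and NOD from PWK were neighbours in this order whose libraries did not overlap. With TM the order was another: WSB 177.5, NOD 265.1, 129 265.9, CAST 286.5, B6 316.0, NZO 594.1, PWK 709.2 and A 715.9, so NZO, PWK and A had TM values above all others.

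In the crosses Lif rose in all 5, by 5.31 fold in xCAST, 5.05 in x129, 3.70 in xNOD, 3.65 in xNZO and 3.31 in xWSB, each past the threshold with limma and edgeR. Controls were 132.3 and 127.1 in xCAST and its TM libraries 776.6, 641.4 and 656.2. At the other end xNOD had 22.5, 24.8 and 26.1 in controls and 88.6 and 92.9 with TM. The control levels were apart for every neighbour in their order, xNOD, xNZO, x129, xWSB and xCAST (limma F test adjusted p = 9.37e-09, passed by 21.4% of all genes). The change itself did not pass for a difference among crosses, with an adjusted p of 0.0204 by the limma F test (0.227% of genes passed) and 0.128 by the interaction (0.0547% passed). For no gene of the group was the change in 1 cross apart from the mean of the others with limma or edgeR (0.0203% of all pairs were), with 9 of 30 at an unadjusted p below 0.05 by limma. The call in xWSB was lost without control replicate 2 (limma adjusted p = 0.0506) or 3 (0.0241) and without TM replicate 2 (0.0498) or 3 (0.0147), and that in xNOD without control replicate 2 (0.0124), adjusted p from limma in each case. In xWSB alone the 3 same-numbered pairs each deviated together (correlations of 0.259, 0.161 and 0.121), and with a replicate block its Lif change of 1.72 did not pass (limma adjusted p = 0.0137).

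**Figure D2:**
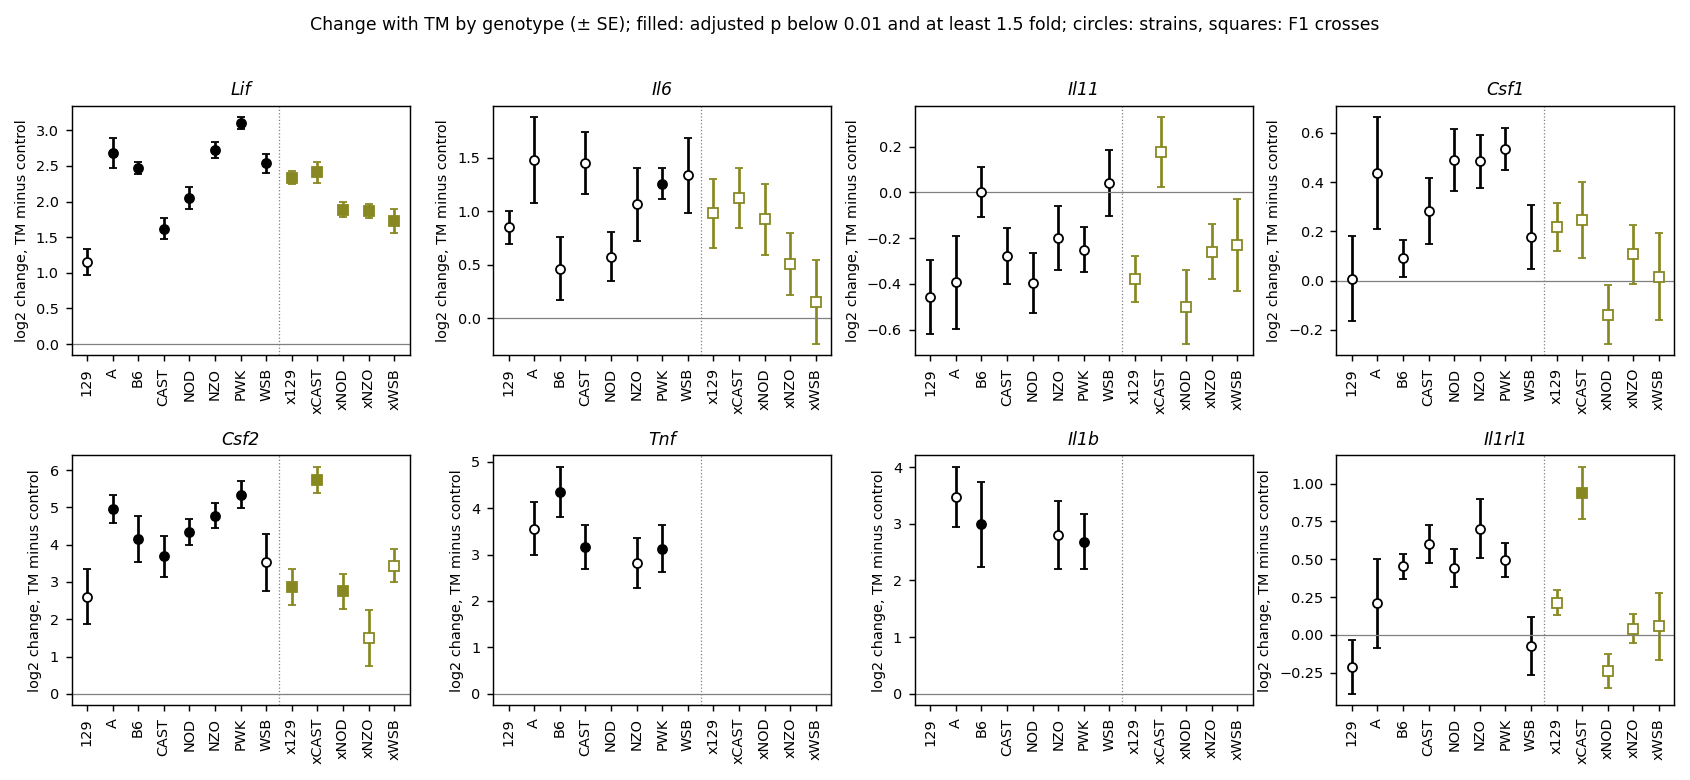
Log2 change with TM (TM minus control on log2(value + 0.1), ± SE) of each gene in the 8 strains (circles) and 5 crosses (squares); filled points passed an adjusted p below 0.01 and 1.5 fold, and pairs below the filter are left blank. Lif is filled everywhere but in 129, where its change of 1.15 is the lowest of all 13 genotypes.

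Il6, a driver of fever and the acute phase response, was higher with TM on average in all 8 strains but passed in PWK alone. PWK controls held 3.81, 3.89 and 4.30 and TM libraries 10.4, 10.1 and 8.68, a rise of 2.39 fold (limma adjusted p = 3.36e-05). Every TM library lay above every control in 7 strains, where 22.5% of all pairs of gene and strain did so. In B6 they overlapped, with 2.71 and 1.62 in controls against 2.45 and 3.51. The changes that did not pass ran from 0.46 ± 0.29 (SE, log2) in B6 to 1.48 ± 0.40 in A. In CAST the change passed without control replicate 1 (limma adjusted p = 0.00279), control replicate 3 (4.66e-05) or TM replicate 3 (0.000144, each adjusted), and in NZO without TM replicate 3 (limma adjusted p = 9.41e-08). No difference in the change was found among strains (limma F test adjusted p = 0.165, interaction adjusted p 1.00).

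What differed in Il6 was the level in control cells (limma F test adjusted p = 5.46e-06). 129 controls held 16.9 and 17.2, NOD controls 13.1 and 9.21 and NZO controls 7.47 and 7.64, while the other 5 strains lay between 1.32 and 4.30. The level in 129 was 4.95 fold that of the mean of the other strains (limma adjusted p = 3.79e-05) and that in NOD 3.00 fold (adjusted p = 0.00145, limma), where 10.3% of pairs were apart in this test. NOD did not pass without its control replicate 1 (limma adjusted p = 0.0816). WSB and CAST were lower than the mean of the others, at 0.320 and 0.376 fold (limma adjusted p = 0.000665 and 0.00119), but WSB did not pass without its control replicate 3 (adjusted p = 0.0175) nor CAST without its control replicate 1 (0.0566). The strain with the highest Il6 in control cells, 129, was also the one with the smallest change of Lif. The other strains did not keep to such an order. Lif changed by 2.05 in NOD and 2.72 in NZO, next highest in Il6, and by 1.62 in CAST, low in Il6 (log2). A link between the 2 was not tested.

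In the crosses 1 genotype stood far from the rest. xWSB controls held Il6 at 60.2, 45.8 and 57.7 and its TM libraries at 118.0, 54.1 and 34.4, while all other controls lay between 1.03 and 6.92 and all other TM libraries between 1.84 and 12.2. In the founder set, the parent strains WSB and B6 were among the 5 strains with the lowest Il6 in controls. The limma F test of control levels among crosses gave an adjusted p of 1.37e-07. The TM libraries of xWSB lay on both sides of its controls, and its change of 0.15 ± 0.39 (SE, log2) turned to −0.33 without TM replicate 1. No cross passed for Il6 with limma or edgeR, though 3 had an unadjusted p below 0.05, and in xCAST the change of 2.17 fold passed without TM replicate 3 (limma adjusted p = 4.34e-05).

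Il1a, a close relative of Il1b that starts the same receptor and is part of the pathway list below, was high in the same genotypes. In xWSB its controls were 39.1, 42.0 and 52.6 and its TM libraries 90.3, 42.8 and 36.2, against 0 to 0.596 in all other F1 controls. In the founder set 129 controls held 16.7 and 15.1, NOD 3.82 and 2.02 and NZO 1.80 and 3.52, and the other strains lay between 0 and 0.820. The summed value of the myeloid markers in xWSB, 9.79 to 14.5 in controls, lay within the range of the other crosses, 7.23 to 34.0.

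**Figure D3:**
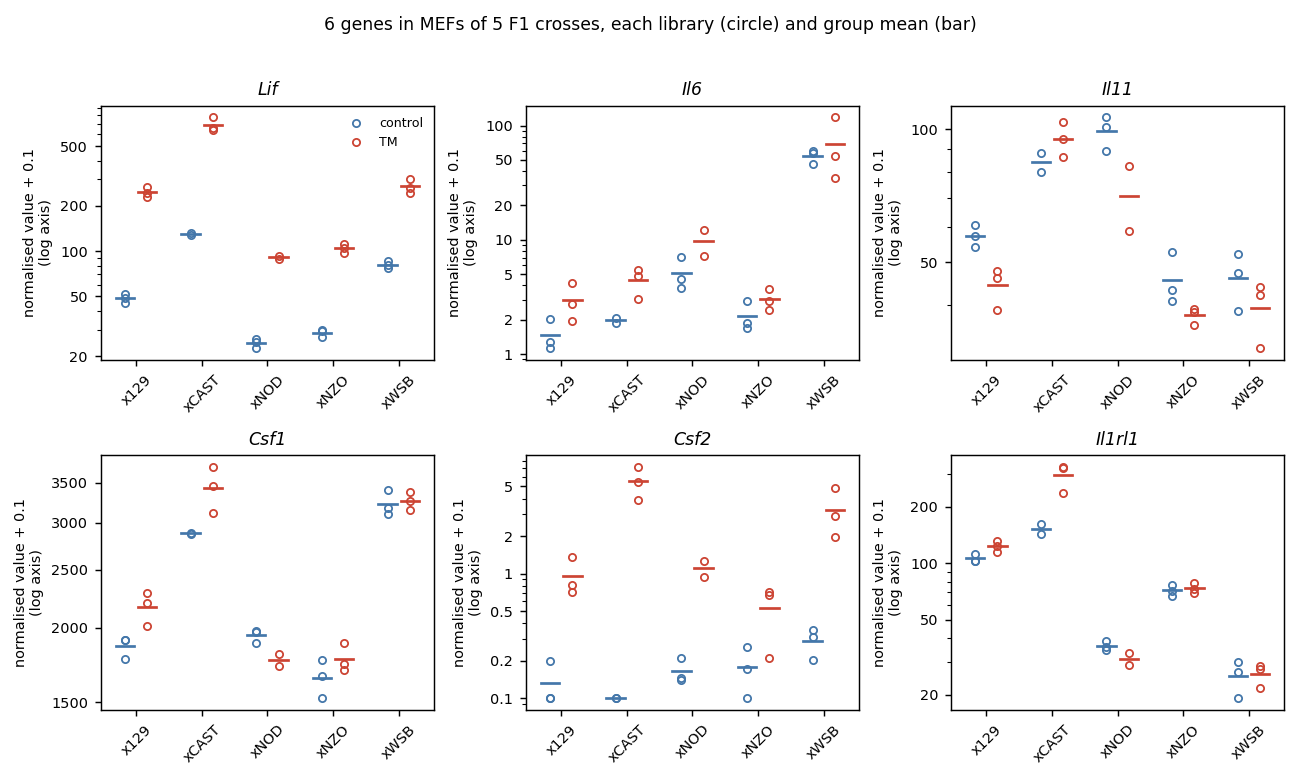
Normalised value of the 6 genes listed for the F1 crosses in each library (circles, with 0.1 added, on a log axis), with group means as bars. All 6 xWSB libraries hold Il6 at 34.4 or more, control and TM alike, while Il1rl1 is lowest in this cross.

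Il11, a gp130 cytokine made by fibroblasts and known from fibrosis and platelet formation, did not rise. Its change ran from −0.46 ± 0.16 (SE, log2) in 129 to 0.04 ± 0.14 in WSB, was below 0 in 6 of 8 strains (and in B6 too with edgeR or median-of-ratios scaling), and passed in none with limma or edgeR. With limma 4 strains had an unadjusted p below 0.05, all with lower TM values. In 129 the controls were 99.4 and 99.9 and the TM libraries 76.2, 80.4 and 62.3. All TM libraries lay below all controls in 129, A, CAST, NOD and PWK, that is in 5 of 8 strains, where 23.7% of all pairs of gene and strain did so. Il11 thus went the opposite way from Lif in the same libraries in these 5 strains, by changes that did not pass the test singly.

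In the crosses Il11 was below its controls in every TM library of x129, xNOD and xNZO, 3 of 5, where 20.3% of all pairs were. The change ran from −0.50 ± 0.16 (SE, log2) in xNOD to 0.18 ± 0.15 in xCAST, and none passed with limma or edgeR, while 2 had an unadjusted p below 0.05. Without TM replicate 2 of xNOD its change passed as lowered, at −0.75 (limma adjusted p = 0.00166). Control levels of Il11 differed among strains. The means were 38.8 in PWK, 69.8 in WSB, 76.7 in CAST, 81.5 in B6, 99.6 in 129, 136.1 in NZO, 169.2 in NOD and 222.0 in A, a range of 5.72 fold (limma F test adjusted p = 1.01e-08), and CAST and B6 were the one pair of neighbours that overlapped.

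Csf1, the growth factor on which macrophages depend, had a value of 1524 or more in every library and moved little. Means were higher with TM in all 8 strains, from 1.01 fold in 129, where median-of-ratios scaling turned the log2 change to −0.017, to 1.45 fold in PWK. In PWK the log2 change was 0.53 ± 0.09 (SE, limma adjusted p = 0.000458), and none reached the 1.5 fold the call asks for. PWK controls held 1876, 1747 and 1762 and TM libraries 2629, 2565 and 2592. Every TM library lay above every control in 7 strains, all but 129, where 22.5% of all pairs of gene and strain did so. In NOD the change passed both limits without control replicate 3, at 0.61 (limma adjusted p = 0.000441). In the cross xNOD the TM values were lower, with 1975, 1887 and 1969 in controls and 1722 and 1810 with TM, a change of −0.14 ± 0.12 (SE) that did not pass (limma adjusted p = 0.402). No cross passed for Csf1 with limma or edgeR, and 1 had an unadjusted p below 0.05. Control levels spanned 1.81 fold among strains, lowest in PWK and highest in WSB (limma F test adjusted p = 0.000958), and 1.96 fold among crosses, highest in xWSB (adjusted p = 9.58e-06, limma).

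Csf2, a growth factor for granulocytes and macrophages, rested on few reads. In the founder controls it had at most 3 reads in every library but 1, the exception being 129 control replicate 2 with 18 reads (value 1.03). With TM it had between 9 and 97 reads in every founder library. PWK TM libraries held 7.19, 6.05 and 5.93 against 0, 0.154 and 0.0588 in controls, and A held 4.92, 8.15 and 3.95 against 0.0898, 0.0911 and 0.0567. WSB was lowest with TM, at 0.905, 1.60 and 0.801, with no read in either control. No founder TM library reached down to a control of its strain, where 22.5% of all pairs of gene and strain were apart in this way.

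Where controls held almost no read, changes of genes this low are understated by the 0.1 added to each value before the log2. This does not hold for Csf2 in 129, whose log2 change below lay above the 2.11 of edgeR. Csf2 rose by 5.34 ± 0.36 (SE) in PWK (limma adjusted p = 1.67e-07), 4.95 in A, 4.78 in NZO, 4.35 in NOD, 4.16 in B6 and 3.69 in CAST, all past the threshold. In 129 it was 2.60 ± 0.73 (limma adjusted p = 0.107) and in WSB 3.53 ± 0.77 (adjusted p = 0.0120, limma), and neither passed. By reads pooled over libraries whose reads could be recovered, PWK had 173 reads with TM and 4 in controls, a ratio of 76.8 (95% exact binomial interval 29.4 to 284.9, counting error only). For 129 the ratio was 3.94 (2.39 to 6.84), from 93 and 19 reads, 18 of which came from control replicate 2. B6 and WSB had no control read, and with a floor of 3 reads over the controls of the strain they were at least 17.02 fold and 5.63 fold higher with TM. The call in A was lost without TM replicate 3 (limma adjusted p = 0.0116), and that in NZO without control replicate 2 or 3 or TM replicate 1 or 2, with limma adjusted p-values between 0.0373 and 0.0840.

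The F test passed for Csf2 among strains (limma adjusted p = 4.99e-05) and among crosses (adjusted p = 0.00903, limma), but the interaction did not, with adjusted p-values of 0.529 and 0.124 from limma and 0.276 and 0.717 from edgeR. The F test among crosses missed the threshold when any 1 TM library other than xWSB TM replicate 1 was left out (limma adjusted p from 0.0103 to 0.0410), and without moderation (0.0341). Without 129 control replicate 2 the F test among strains missed the threshold as well (limma adjusted p = 0.0103). In the crosses Csf2 rose in xCAST, x129 and xNOD. xCAST had no read in 2 controls and 7.07, 5.31 and 3.79 with TM, a change of 5.73 ± 0.36 (SE, log2, limma adjusted p = 2.13e-06) and at least 64.5 fold against the floor of 3 reads. xWSB went from 0.104, 0.206 and 0.251 to 4.81, 2.77 and 1.88 and just missed (limma adjusted p = 0.0131), and xNZO overlapped, with 0, 0.158 and 0.0712 against 0.572, 0.611 and 0.108. The xNOD call was lost without any 1 of its controls (limma adjusted p between 0.0297 and 0.0434). That in x129 was lost without control replicate 1 or 3 or TM replicate 1, with limma adjusted p-values between 0.0103 and 0.0172.

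Tnf and Il1b split the strains into those with reads under TM and those with almost none. Tnf with TM was 4.00, 8.05 and 4.87 in A, 2.07 and 3.56 in B6, 2.10, 2.86 and 1.64 in NZO, 1.49 and 1.76 in CAST and 1.13, 1.01 and 0.673 in PWK. The TM libraries of 129 held 0, 0 and 0.104, those of NOD 0, 0.114 and 0 and those of WSB 0.101, 0 and 0.267, which is 3 reads at most in any of these 9 libraries. Controls of all strains lay between 0 and 0.638. So Tnf was read in 5 strains with TM, and in the other 3 it was not detectable beyond a few reads at this depth.

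Tnf passed in B6 (4.35 ± 0.54 SE on the log2 scale, limma adjusted p = 1.48e-05), CAST (3.16, adjusted p = 0.00386, limma) and PWK (3.13, adjusted p = 0.000465, limma). It missed in A (3.56, limma adjusted p = 0.0263) and NZO (2.82, adjusted p = 0.0587, limma). Every TM library lay above every control there too, as in 22.5% of all pairs of gene and strain. In NZO Tnf passed without TM replicate 3 (limma adjusted p = 4.65e-05). In pooled reads the ratio was 47.9 in B6 (95% exact binomial interval 12.9 to 401.3), from 90 and 2 reads, 40.8 in PWK (6.63 to 1682), from 23 and 1, and 11.5 in A (7.16 to 19.5), from 195 and 19. No ratio was formed for 129, NOD and WSB, whose TM and control reads were both at or below 3. The change differed among strains by the limma F test (adjusted p = 2.58e-05) and by the limma interaction (adjusted p = 0.00867), but not by the edgeR interaction on reads (adjusted p 1.00).

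Il1b, which like Tnf is a first-line signal of macrophages, followed the same division. A held 2.26, 2.93 and 1.91 with TM, NZO 0.456, 0.832 and 1.55, PWK 0.851, 0.907 and 0.795, CAST 0.426 and 0.987 and B6 0.660 and 0.733. NOD had no read in any of 5 libraries, and 129 and WSB had at most 2 reads in a library. It passed in B6 (2.99 ± 0.75 SE, log2, limma adjusted p = 0.00575) and PWK (2.69, adjusted p = 0.00111, limma) and not in A (3.48, adjusted p = 0.0231, limma) or NZO (2.81, adjusted p = 0.0752, limma). The B6 call was lost without control replicate 2 or 3 (limma adjusted p = 0.0201 and 0.0283). Against the floor of 3 reads over the controls, Il1b was at least 7.45 fold higher with TM in B6 and at least 8.35 fold higher in CAST, where no control had a read. The limma F test among strains passed (adjusted p = 0.000389), and the interaction did not (adjusted p = 0.0336 with limma and 1.00 with edgeR).

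Markers of myeloid cells differed among strains, and not all in the same order. Of 16 myeloid markers 13 were listed in the founder tables, and their summed value with TM was 42.9 to 62.7 in A, 31.2 to 32.9 in B6, 23.7 to 27.8 in CAST and 24.0 to 26.4 in NZO. It was 16.6 to 18.2 in PWK, 12.3 to 16.2 in 129, 10.6 to 14.4 in NOD and 7.44 to 8.10 in WSB. Lyz2, lysozyme of macrophages, was 19.6 to 33.4 in A with TM and 3.40 to 3.97 in PWK, but 0.880 to 0.939 in 129, 0.192 to 0.572 in NOD and 0.493 to 1.01 in WSB. Tyrobp and C1qa were at 0 in all TM libraries of NOD, and Tyrobp was at 0 in the controls of 129 and NOD. Some other markers in the list had another order. Csf1r, the receptor for Csf1, had a TM mean of 5.98 in 129 against 4.06 in PWK and 2.51 in CAST, Cd14 one of 4.24 in 129 and 4.17 in NOD against 2.72 in B6, and Ptprc one of 0.948 in NOD and 0.932 in WSB against 0.742 in PWK. In controls the sum in PWK, 18.5 to 20.05, lay in the same range as in 129, 18.2 to 19.98, and NOD, 19.4 to 19.8. Its parts differed: control means in PWK, 129 and NOD were 4.04, 2.30 and 1.21 for Lyz2 and 0.404, 0.127 and 0.0315 for C1qa. For Csf1r they were 5.06, 7.72 and 5.38, and for Cd14 2.70, 5.05 and 6.50. Emr1 means with TM ran from 0.270 in PWK to 1.90 in A among A, B6, CAST, NZO and PWK. They were 0.0419 in 129, 0 in NOD and 0.0890 in WSB. In RNA from a whole culture, fewer cells of a type and less RNA per cell cannot be told apart, and the part of myeloid cells in the Tnf and Il1b values was not tested.

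WSB control replicate 2 stood apart from its fellow in these markers, with a summed myeloid value of 48.9 against 8.68, and held no read of Tnf or Il1b. Its 4 epithelial markers summed to 46.4, and 3 of them were at 1 or more, against 1 in its fellow. In the crosses control replicate 3 of xNOD (34.0, with no other xNOD control above 16.02) and of xNZO (30.7 against 7.55 and 9.02) stood out in the same list of 8 myeloid markers. Of the calls of a change with TM in these 3 genotypes, that of Csf2 in xNOD alone changed when these controls were left out, and was lost (limma adjusted p = 0.0297). Of 9 mast cell and lymphoid markers only Gata3 was listed in either set.

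**Figure D4:**
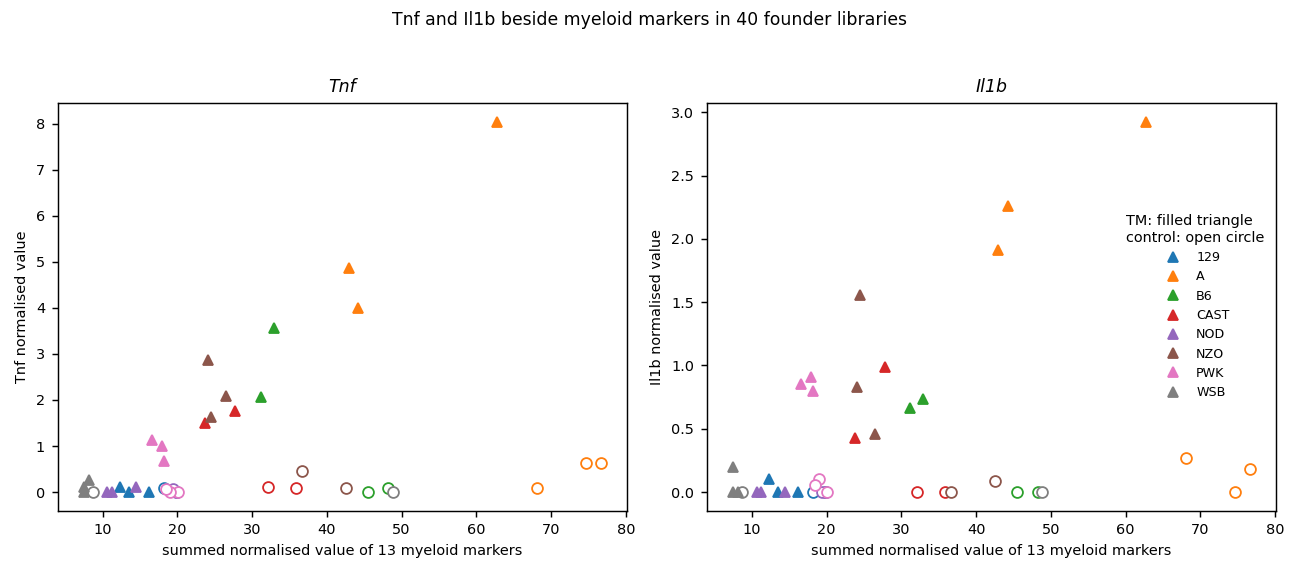
Normalised value of Tnf and of Il1b against the summed value of 13 myeloid markers in the 40 founder libraries, coloured by strain (TM filled triangles, control open circles). Among TM libraries Tnf is highest in A, where the markers sum to 42.9 or more, and near 0 in 129, NOD and WSB, while controls stay at 0.638 or below at any marker level.

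Il1rl1 encodes both the membrane receptor for Il33 and a secreted decoy, which values per gene do not separate. It passed in no founder strain with limma or edgeR, as each change was either under 1.5 fold or over an adjusted p of 0.01, and 5 strains had an unadjusted p below 0.05. The change ran from −0.21 ± 0.18 (SE, log2) in 129 to 0.70 ± 0.20 in NZO. B6 controls held 130.9 and 113.2 and TM libraries 172.4 and 161.6, or 1.37 fold (limma adjusted p = 0.000489), and CAST went from 139.7 and 140.8 to 231.5 and 195.0, or 1.51 fold (limma adjusted p = 0.0167). CAST passed without control replicate 1 or 3 (limma adjusted p = 0.000141 and 7.45e-05) and NZO without TM replicate 3 (adjusted p = 1.12e-07, limma). TM libraries lay above controls in 5 strains, B6, CAST, NOD, NZO and PWK, and overlapped them in 129, A and WSB. Of all pairs of gene and strain 22.5% had every TM library above every control.

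Among crosses Il1rl1 rose in xCAST, from 142.5 and 162.6 to 320.7, 325.9 and 237.3, or 1.92 fold (limma adjusted p = 0.00607). That call was lost without control replicate 2 (limma adjusted p = 0.0988), control replicate 3 (0.0330), TM replicate 1 (0.0351) or TM replicate 2 (0.0276). In xNOD both TM libraries, 28.5 and 33.2, lay below the controls at 34.6, 35.9 and 38.7. The change did not pass for a difference among crosses (limma F test adjusted p = 0.0110, interaction adjusted p = 0.183) or strains (F test adjusted p = 0.0358, interaction adjusted p 1.00, limma). The control level differed more than for most of the group: from 31.0 in PWK and 41.0 in NZO to 140.3 in CAST and 240.5 in A among strains, or 7.76 fold (limma F test adjusted p = 3.25e-08), and from 25.0 in xWSB to 152.6 in xCAST among crosses (adjusted p = 1.34e-07, limma). PWK and A, at the ends of this order, were also at the ends of the order for Il11.

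Across the 22 founder TM libraries, log2(TM/control) of Lif and Csf2 went together with a Pearson correlation of 0.82 (Spearman 0.77), that of Tnf and Il1b with 0.88 (0.76), and that of Csf1 and Csf2 with 0.72 (0.65). Il6 correlated with no other member above 0.23, and Il11 with none above 0.43 (Pearson). These libraries share the median control within a strain, so the values describe the 22 libraries and carry no test. Among 12050 genes with a mean value of at least 1, the most like Lif were Btg2 (0.89), Kcnk10 (0.89) and Wipi2 (0.87). The most like Csf2 were Cxcl2 (0.89), Tnfaip3 and Nfkb2 (0.86 each). For Il6 they were Il2rg (0.85), Rbbp8 (0.80) and Tgif1 (0.79), and for Il11 Repin1 (0.76), Retreg2 (0.74) and Rap2b (0.71). Zswim4 (0.91), Slc20a2 and Zbtb21 (0.90 each) were closest to Csf1, and Zcchc2 (0.92), Naa25 (0.92) and Ern1 (0.90) to Il1rl1. Tnf had Arhgef4, Vstm4 and Lrrn4 (0.73 each), and Il1b had Pdgfb (0.80), Rassf4 and Saa3 (0.76 each).

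Each cross was set beside its parents by its own change, without a test, since the sets are in separate tables. Lif changed by 2.33 in x129, next to 2.47 in B6 and well above 1.15 in 129, and by 2.41 in xCAST against 1.62 in CAST (log2). In xNOD, xNZO and xWSB, at 1.89, 1.87 and 1.72, it changed by less than in either parent (2.05, 2.72 and 2.54 in the father strains). Csf2 was not ranked between crosses and parents, since the controls of xCAST, B6 and WSB held no read of it. Il1rl1 in xCAST (0.94) exceeded both parents (0.45 and 0.60).

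**Figure D5:**
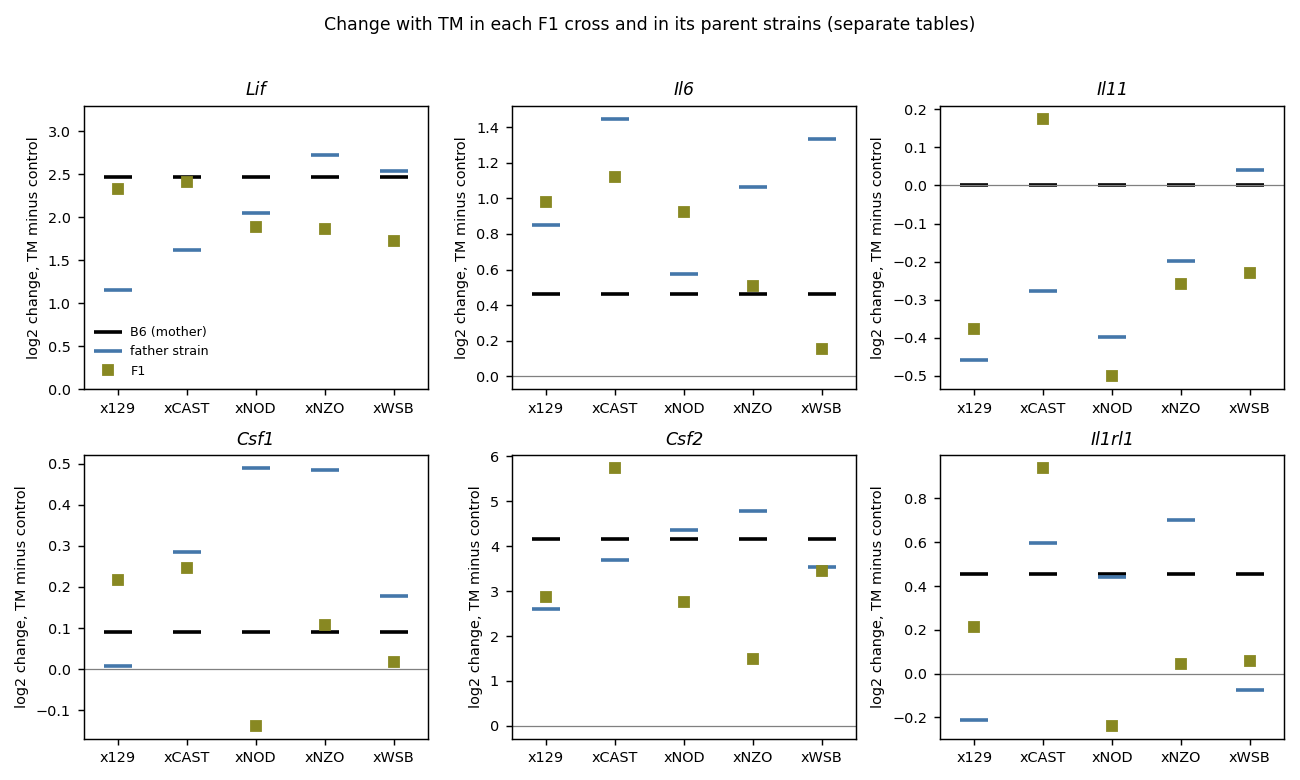
Log2 change with TM of 6 genes in each F1 cross (squares) beside the change in B6 (black bars) and in the father strain (blue bars). For Lif the squares of x129 and xCAST lie by B6, at 2.33 and 2.41 against 2.47, and those of xNOD, xNZO and xWSB lie below both parents.

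Other genes of these pathways, 65 in all by role, were mostly steady. Of 57 listed in the founder set, 8 were raised in at least 1 strain and 5 lowered, and 26 of 428 pairs of gene and strain were raised (6.07%, beside 2.4% over all genes) and 7 lowered (1.64%, beside 1.55%). In the crosses 11 of 248 pairs were raised (4.44%, beside 2.54%) and 4 lowered (1.61%, beside 1.47%). Of 9 feedback inhibitors 2 were raised and 3 lowered in at least 1 strain. Of 11 other ligands 2 were raised, of 15 receptors 2, of 17 signal transducers 1 (with 1 lowered) and of 5 genes for processing and shedding 1 (with 1 lowered).

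Feedback inhibitors made up 13 of the 26 raised pairs in the strains, all from Tnfaip3 and Nfkbia. Tnfaip3 (A20), an ubiquitin-editing brake on NF-kB, was raised in 7 strains, all but 129 (1.86 fold), up to 6.23 fold in PWK, and in all 5 crosses, up to 8.71 fold in xCAST. Nfkbia, the inhibitor that holds NF-kB in the cytoplasm, was raised in 6 strains and 4 crosses, among those strains least in CAST (2.06 fold) and most in A (3.94), and did not pass in 129 (1.99 fold) or NZO (3.40). Nlrp3, a sensor whose inflammasome leads to Il1b cleavage, was called raised in B6, CAST, NOD and PWK and in xCAST. In PWK it went from 0.444, 0.563 and 0.294 in controls to 3.31, 3.53 and 4.04 with TM. All 7 strains tested for Nlrp3 were higher with TM, from 2.24 fold in 129 to 11.8 fold in A, though A did not pass. Il1a was called raised in B6, CAST and PWK, while all 7 strains tested were higher, from 2.29 fold in 129 to 12.8 in CAST. Osmr, the receptor for oncostatin M, was called raised in B6, CAST and PWK by 1.55, 1.88 and 1.54 fold and in x129. Over all 8 strains Osmr was higher with TM, from 1.35 fold in WSB to 1.88 in CAST.

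Lowered genes were fewer. Pias3, an inhibitor of STAT3, was called lowered in B6, PWK and xNOD, at 0.654, 0.507 and 0.571 of control. In the other genotypes it lay at 0.893 of control or below without passing. Furin, a protease that cuts many secreted precursors, was called lowered in B6, WSB and xNOD, at 0.571, 0.552 and 0.473 of control. In the other strains it lay between 0.526 of control in 129 and 0.692 in PWK without passing. In the other crosses it lay at 0.703 or below, also without passing. Socs3, the feedback inhibitor of gp130 signalling, fell in B6 and x129, to 0.528 and 0.559 of control. In the other strains it lay between 0.502 of control in 129 and 1.04 in WSB without passing.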

How the data were processed

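RNA from the 68 cultures was sequenced and, per the labels and the study's methods, reads were trimmed with Trimmomatic, checked with FastQC and aligned with TopHat 1.4.1 to strain-specific versions of GRCm38. The authors left out libraries that lay away from their group in a principal component analysis and normalised the rest with TMM in edgeR. Founders and crosses are in separate tables, and whether they were scaled in 1 run is not given in the sources used here. The deposited tables are titled FPKM, but the authors' values behave as a TMM-scaled signal per gene that is not divided by length. In all 68 libraries every value was a whole multiple of that of 1 read (tolerance 0.01), and reads of 66 were used as recovered reads. PWK TM replicate 2 and WSB TM replicate 1 were not used for pooled reads or edgeR, though read counts of single libraries include them. Genes with a value of 0.5 or more in 2 libraries of a genotype were kept. The planned tests assumed another unit, and log2(value + 0.1) was tested with limma 3.58.1 in R 4.3.3, TM against control within each genotype, with Benjamini-Hochberg adjustment over all genes kept. A change was called at an adjusted p below 0.01 and 1.5 fold. edgeR 4.0.16 (quasi-likelihood) on the recovered reads was an alternative. Strains were compared by a moderated F test on log2(TM/median control) and by a genotype by treatment interaction, also for controls alone and for 1 genotype against the mean of the others. Scripts were tested on simulated data. In the F1 set, lines for reads not assigned to a gene, 15.5% to 24.1% of the signal, were left out. Intervals and floors of 3 reads cover counting error only.

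The 8 genes were named by the request. The members, the pathway and marker lists and the rule for other genes were chosen with earlier results of these data known, so counts over them are descriptions. The rule names, with values, up to 6 raised and 4 lowered pathway genes called in the most genotypes, and for each member the 3 genes whose log2(TM/control) correlates best with it. Il1a is among the former and was set beside Il6 after its values were seen. Numbered replicates were checked for pairing by the correlation of deviations from the group means. In xWSB all 3 pairs were above 0.1, and in no other genotype with 3 pairs were all, so the numbers were taken to pair samples in xWSB alone. NZO, with 2 pairs at 0.195 and 0.223, was left unpaired. This choice was read from the same data, and the labels do not state a pairing. Counts of calls use the fit without pairing in every genotype, xWSB included.

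The alternatives were another pseudocount (1), no filter, a mean of at least 2, median-of-ratios scaling, no moderation, a replicate block, 1 fit over all libraries of a set and leaving out each library.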

Additional observations from a re-analysis of the deposited data

Results flagged for a closer look

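The rise of Lif with TM differed among the 8 founder strains by the strain by treatment interaction (limma adjusted p = 2.97e-05), lowest in 129 (log2 change 1.15) and highest in PWK (3.10). The change of Tnf also differed by the same test (limma adjusted p = 0.00867). It was lowest in 129 (log2 change −0.089, from 1 control read and 2 TM reads) and highest in B6 (4.35). TM means ran from 0.0346 in 129 to 5.64 in A. The Tnf difference was not called by the edgeR interaction on reads (adjusted p 1.00), while that of Lif was (adjusted p = 0.000148, edgeR). Neither difference was called by the interaction with a replicate block, which is given at the end.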

How the results depend on the processing

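Leaving out 1 library at a time, 1400 of 1506 single values kept their direction and their side of the threshold, 60 lost a call, 30 gained one and 16 changed sign, and under the other settings 797 of 841 kept both, 21 lost a call, 20 gained one and 3 changed sign. Groups of 2 or 3 libraries limit the calls, and a lone library is then assumed to vary like the rest. Counts of Csf2, Tnf and Il1b rest on few reads. Causes of the shifts below were not tested.

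The 19 raised pairs in the strains became 11 with a mean of at least 2, which leaves out most low genes, and 29 with 1 fit over all libraries, and lay between 16 and 22 with 1 library left out. The 9 in the crosses lay between 7 and 10, lowered pairs between 0 and 1 in the crosses (1 without xNOD TM replicate 2) and at 0 in the strains. Members with a strain effect on the change, 4 by the F test, were 1 with a mean of at least 2, 2 by the interaction, 1 by the edgeR interaction and 3 to 6 with 1 library left out. Members with a cross effect, 1 by the F test, were 2 with a pseudocount of 1 and 2 with median-of-ratios scaling, and 0 with a mean of at least 2, without moderation, by the interaction and by the edgeR interaction. With 1 library left out they were 0 to 3. Changes apart in 1 strain, 2, were 4 with a pseudocount of 1, 1 with edgeR and 1 to 3 with 1 library left out. Changes apart in 1 cross were 0 with limma and edgeR (9 of 30 at an unadjusted p below 0.05), and 1 with a pseudocount of 1 or without xCAST TM replicate 3 or xWSB control replicate 1. Control levels apart in 1 strain were 16 to 23 with 1 library left out, and effects of strain or cross on control levels stayed at 5.

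Log2 changes that changed sign had no call. With 1 library left out, Csf1 lay between −0.059 and 0.12 in 129 and between −0.011 and 0.056 in xWSB. Il11 lay between −0.17 and 0.17 in B6 and between −0.020 and 0.084 in WSB. Il1rl1 lay between −0.040 and 0.49 in A, −0.35 and 0.21 in WSB, −0.0069 and 0.091 in xNZO and −0.13 and 0.19 in xWSB, and Il6 in xWSB between −0.33 and 0.56. With median-of-ratios scaling Csf1 in 129 was −0.017 and Il11 in B6 −0.014, and with edgeR Il11 in B6 was −0.022.

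Outside xWSB, the numbers were not taken to pair control and TM libraries. Over all genotypes their deviations correlated between −0.53 and 0.31 (median 0.02 over 29 pairs, 7 above 0.1), and B6 and CAST share only 1 number. With a replicate block in the interaction no member had a strain effect (0) or a cross effect (0) on the change, and 0 changes were apart in 1 strain. For Lif the blocked interaction had an adjusted p of 0.516 with limma, and the change in 129 and in PWK against the others one of 0.487 and 0.333. Of the calls within a genotype the block lost Il1rl1 in xCAST (0.0111) and Lif in xWSB (0.0137) and gained Lif, Il6 and Csf2 in 129 and Tnf and Il1b in NZO, all by limma.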
